A study of Homo sapiens with 4 samples.

Results

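The BCL2 family decides whether the mitochondrial route of apoptosis is taken, and 9 of its genes are described here from ribosome footprints of human melanocytes. They were chosen by name: 5 anti-apoptotic genes (BCL2, BCL2A1, BCL2L1, BCL2L2 and MCL1) and 4 pro-apoptotic genes (BCL2L11, BAK1, BID and PMAIP1), all 9 found among the 14355 gene names with reads. The cells were Hermes 4B, an immortalised line of wild-type skin melanocytes, so every library comes from a single line. They received either a control siRNA or an siRNA against CDH3-AS1, an antisense RNA of the P-cadherin gene CDH3, at 25 to 50 nM (the knockdown), and all were grown with the phorbol ester TPA, endothelin-1, cholera toxin and stem cell factor. Ribosomes were arrested with cycloheximide and the RNA they cover was sequenced, which gives ribosome density and, without matched RNA-seq, no translational efficiency. Each siRNA had 2 libraries, 1 in each of 2 batches, and no label says that they came from separate cultures. P-values thus cover only the spread between these 4 libraries, estimated jointly over all genes.

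Anti-apoptotic members hold the effectors BAX and BAK1 in check at the outer mitochondrial membrane, and each has a groove that binds the BH3 segment of its pro-apoptotic relatives. BH3-only proteins such as BIM (made from BCL2L11), NOXA (from PMAIP1) and activated BID occupy that groove or act on the effectors, after which cytochrome c leaves the mitochondria and caspases are activated. NOXA binds mainly MCL1 and BFL1, the product of BCL2A1, and promotes the breakdown of MCL1. In melanocytes, BCL2 and BCL2A1 are known transcriptional targets of the lineage factor MITF.

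Total reads ran from 2034854 to 6759850 per library and reads in coding sequence from 1842464 to 6348372. Levels of a gene between libraries are given in CPM, its coding-sequence reads per 1000000 coding-sequence reads of the library. Levels between genes are given in RPKM, coding-sequence reads per kilobase of coding sequence and per 1000000 total reads. The RPKM of a gene is the sum over its transcripts. The rows are protein-coding transcripts, so the level of CDH3-AS1, a noncoding RNA, was not analysed here and the knockdown is taken from the labels. The 9 melanocyte markers were present in every library, summing to between 21847 and 40518 CPM. Of the other marker lists, 12 of 15 skeletal muscle, 8 of 11 fibroblast and keratinocyte and 5 of 9 leukocyte markers had a row in any library, and the rest were not analysed here. Control siRNA replicate 1 held 4131 CPM of the 12 muscle markers, 0 of them at 0, and 501 CPM of the 8 fibroblast and keratinocyte markers, with DCN, PDGFRA and KRT1 at 0. In the other libraries these lists summed to between 4.21 and 10.9 CPM and to between 12.9 and 37.2 CPM. The 5 leukocyte markers, listed because BCL2A1 is abundant in blood cells, summed to at most 19.5 CPM, with 1 to 5 of them at 0; PTPRC, CD3E, MS4A1 and HLA-DRA were among those without a row. Since batch 1 rests on that control library, batch 2 is given separately below, and the part of these transcripts in the batch 1 values was not tested beyond leaving that library out.

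The promoters of 3 members are shown because these genes had the smallest p-values of the 9 in the model with the batch as a block, described below. Each line is the 250 bases before the gene's start in RefSeq (GRCh38.p14), 5′ to 3′ on the gene's strand, at chr18:59899746-59899995 (plus strand) for PMAIP1, chr15:79971197-79971446 (minus strand) for BCL2A1 and chr20:31723964-31724213 (minus strand) for BCL2L1. Capitals mark matches, on either strand and none overlapping another, to the E-boxes CATGTG and CACGTG, the CRE core TGACG, the AP-1 site TGANTCA, the ATF4 composite site TGATGNAA, the GC box GGGCGG and the TATA box TATAAA.
PMAIP1: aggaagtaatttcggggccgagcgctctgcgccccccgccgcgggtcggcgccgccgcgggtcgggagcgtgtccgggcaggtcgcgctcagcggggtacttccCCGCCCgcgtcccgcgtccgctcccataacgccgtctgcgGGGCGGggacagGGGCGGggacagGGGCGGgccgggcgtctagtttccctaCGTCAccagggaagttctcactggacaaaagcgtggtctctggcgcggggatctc
BCL2A1: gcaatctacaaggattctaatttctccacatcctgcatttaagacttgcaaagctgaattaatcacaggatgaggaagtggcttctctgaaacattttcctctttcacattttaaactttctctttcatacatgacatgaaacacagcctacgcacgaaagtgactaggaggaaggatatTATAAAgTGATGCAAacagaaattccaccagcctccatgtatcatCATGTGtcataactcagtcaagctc
BCL2L1: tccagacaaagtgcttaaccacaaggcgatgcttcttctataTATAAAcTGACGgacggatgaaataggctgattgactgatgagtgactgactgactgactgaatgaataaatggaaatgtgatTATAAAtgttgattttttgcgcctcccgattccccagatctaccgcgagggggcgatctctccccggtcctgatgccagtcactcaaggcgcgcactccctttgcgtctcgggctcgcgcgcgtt

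The PMAIP1 promoter held 4 GC boxes and, with its first base 55 bases before the start, a CRE core, the core bound by CREB and ATF factors. The BCL2A1 promoter held the E-box CATGTG, a form that MITF binds, 25 bases before the start, a TATA box at 70 bases and an ATF4 composite site at 63. The BCL2L1 promoter shown held a CRE core at 201 bases and TATA boxes at 208 and 125. Another promoter listed for BCL2L1, at chr20:31722869-31723118 (minus strand) and not shown, held no match to any of these motifs. Of all 35116 promoters in the table, 9.42% held CATGTG, 6.34% CACGTG, 21.2% the CRE core, 6.57% the AP-1 site, 3.14% the ATF4 composite site, 42.6% the GC box and 10.7% the TATA box in the same 250 bases. These matches are letters in a window, not sites of binding. Of the 9 members, 7 matched the promoter table. By RefSeq's annotation of GRCh38.p14, MCL1 lies on chromosome 1 at 150574558 to 150579610, BCL2L11 on 2 at 111120914 to 111168445 and BAK1 on 6 at 33572552 to 33580276. BCL2L2 lies on 14 at 23306833 to 23311751, BCL2A1 on 15 at 79960892 to 79971196, BCL2L1 on 20 at 31664452 to 31723963 and BID on 22 at 17734138 to 17774665. PMAIP1 at 59899996 to 59904305 and BCL2 at 63123346 to 63320090 share chromosome 18.

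MCL1, a short-lived survival protein that is made and destroyed within hours, led the anti-apoptotic members in all 4 libraries. Its coding sequence stood at 149 and 267 RPKM in the control libraries of batches 1 and 2, and at 232 and 338 RPKM with CDH3-AS1 siRNA. BCL2A1, which encodes the survival protein BFL1, came next among them, with 163 ± 81.7 RPKM (SD, n = 2) in the control against 208 ± 83.4 RPKM for MCL1, a gap smaller than the spread between the controls. BCL2L1, the gene of BCL-XL, had 76.9 ± 9.0 RPKM, above BCL2L2, the gene of BCL-w, at 41.3 ± 9.57 RPKM in both controls. BCL2, the founder of the family, stood at 30.4 ± 6.85 RPKM, and its difference from BCL2L2 was about the size of their SDs.

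Among the pro-apoptotic members PMAIP1 led in every library but control siRNA replicate 2, where BID was above it. PMAIP1 had 191 RPKM in control siRNA replicate 1, the highest of all 9 members there, and 20.9 RPKM in control siRNA replicate 2, where 6 members were higher. With CDH3-AS1 siRNA it had 283 and 104 RPKM. BID, the link from death receptors to mitochondria, was steady at 34.4 ± 2.70 RPKM in the control and 34.9 ± 6.47 RPKM with CDH3-AS1 siRNA. BAK1, a pore-forming effector, had 20.4 ± 13.1 and 16.2 ± 11.2 RPKM. BCL2L11 was the lowest member in every library, with 0, 8, 12 and 2 coding reads in control replicates 1 and 2 and CDH3-AS1 siRNA replicates 1 and 2. These are 0, 1.42, 1.89 and 0.766 CPM, and BCL2L11 had too few reads to be tested.

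The place of PMAIP1 in this order rests partly on how length is counted, since its reads were divided between a transcript with a coding sequence of 165 bases and another of 411 bases. Divided by the longest coding sequence in place of the sum of the transcripts' RPKM, MCL1 was first in all 4 libraries and PMAIP1 ranked 3 and 7 in control replicates 1 and 2, and 2 and 3 in the knockdown replicates.

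**Figure D1:**
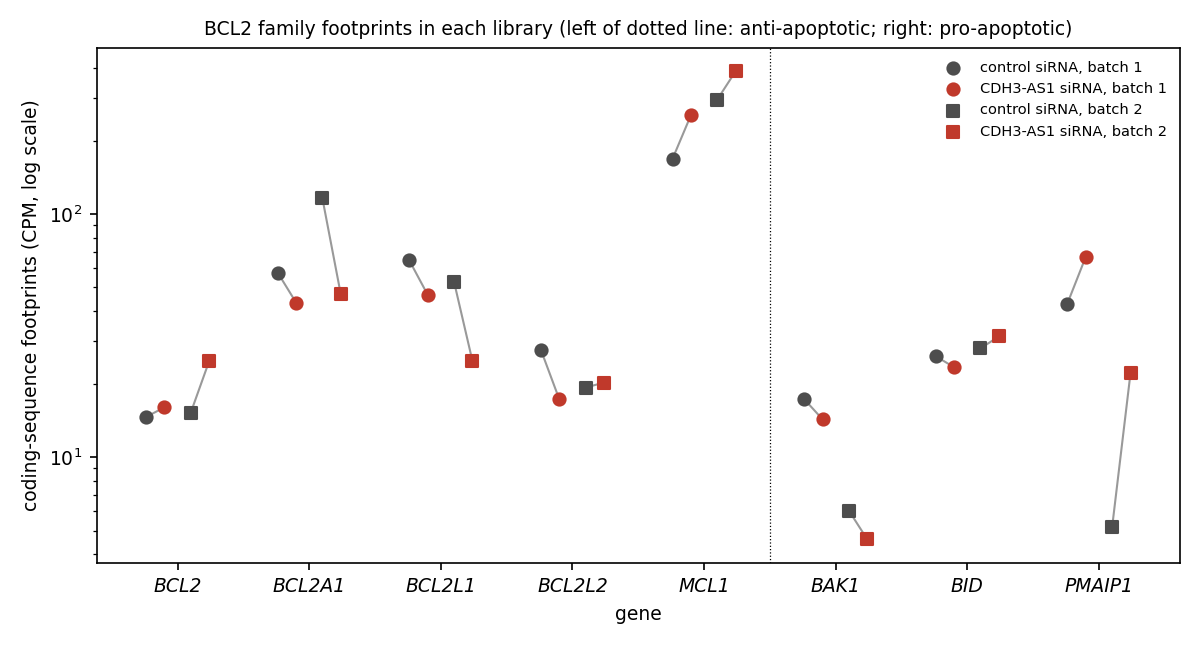
Coding-sequence footprints of 8 BCL2 family genes in CPM on a log axis, 1 point per library, with the control and CDH3-AS1 siRNA libraries of a batch joined by a line; BCL2L11, with at most 12 reads, is left out. MCL1 lies above all others in every library, BCL2A1 and BCL2L1 slope down and PMAIP1 slopes up in both batches.

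PMAIP1 was the only member called in any fit across all genes, and it was higher with CDH3-AS1 siRNA. It encodes NOXA, the BH3-only protein that neutralises MCL1. In batch 1 the control had 42.9 CPM and the knockdown 66.8 CPM, and in batch 2 the control had 5.15 CPM and the knockdown 22.2 CPM. Each CDH3-AS1 siRNA library was above the control of its own batch, but the groups overlapped, because control siRNA replicate 1 lay above CDH3-AS1 siRNA replicate 2. With the batch as a replicate block, edgeR's quasi-likelihood test gave a log2 fold change of 1.27 (SE 0.34, adjusted p = 0.0175), a 2.41-fold rise. Without the block it gave 1.00 (SE 0.92, adjusted p = 1.00). DESeq2 with the block gave 1.37 (SE 0.50, adjusted p = 0.269), so the call was edgeR's alone. That call rests mainly on a spread shared over genes and is no measure of how well the 2 batches match in PMAIP1.

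Within batch 1 the log2 change of PMAIP1 was 0.67 and within batch 2 it was 2.06, where the control had 29 coding reads and the CDH3-AS1 siRNA library 58. Batch 2 stood below batch 1 by a log2 change of -2.16 (adjusted p = 4.24e-08, block model), so leaving out a library mixes that difference with the siRNA: without CDH3-AS1 siRNA replicate 1 the value was 0.0013, without control siRNA replicate 2 it was 0.14, without control siRNA replicate 1 it was 3.09 and without CDH3-AS1 siRNA replicate 2 it was 1.54. Both PMAIP1 transcripts were higher in the block model. The one with a coding sequence of 165 bases, the length of the classical NOXA protein, stood at a log2 fold change of 1.27 (SE 0.39, adjusted p = 0.0574), and the one of 411 bases 1.09 (SE 0.45, adjusted p = 0.297). The longer transcript took 31.6% (95% Clopper-Pearson interval 21.6 to 43.1) and 48.3% (29.4 to 67.5) of PMAIP1's coding reads in the controls, and 42.7% (37.9 to 47.6) and 25.9% (15.3 to 39.0) with CDH3-AS1 siRNA, with no common direction.

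Over the whole family, 8 of the 9 members had enough reads to be tested. Without the block 0 of 8 passed edgeR's quasi-likelihood test, as did 0 of all 10469 genes (0%), and 0 members had an unadjusted p under 0.05 where 2.15% of all genes (225) did. With the block 1 of 8 passed, higher, where 1.62% of all genes passed in either direction and 0.927% higher. At an unadjusted p under 0.05 the block model listed 4 members, PMAIP1, BCL2A1, BCL2L1 and MCL1, against 9.79% of all genes. These members were known from earlier results of the same data. Of the 8, 3 were higher and 3 lower in both batches, so 6 kept their direction, where 54.3% of all genes did. The median log2 fold change of the 8 was -0.10 with the block, against -0.0050 over all tested genes. In bulk libraries such as these, fewer cells that express a gene and fewer footprints per cell cannot be told apart.

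**Figure D2:**
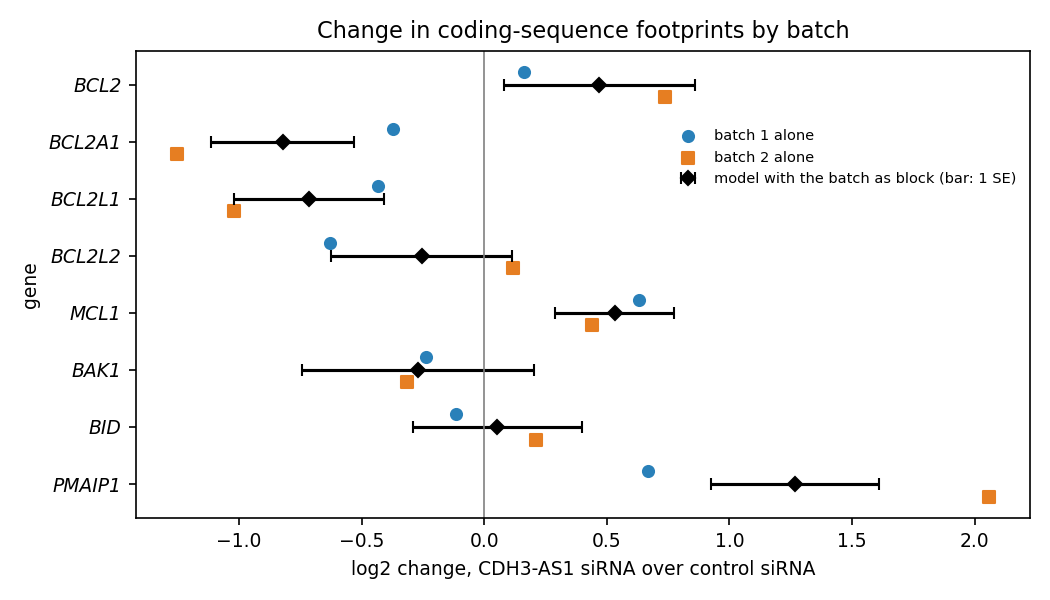
Log2 change in coding-sequence footprints, CDH3-AS1 siRNA over control siRNA, for the 8 tested members. Diamonds with bars of 1 SE are the block model (n = 2 libraries per siRNA); circles and squares are batches 1 and 2 alone. PMAIP1 lies farthest to the right at 1.27, BCL2A1 and BCL2L1 lie left of 0 in both batches, and BCL2L2 and BID lie on opposite sides of 0 in the 2 batches.

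BCL2A1 was lower with CDH3-AS1 siRNA in both batches. It had 57.5 and 116 CPM in control replicates 1 and 2, against 43.3 and 46.7 CPM after knockdown. Both CDH3-AS1 siRNA libraries lay below both controls, which 14.1% of all genes also showed. Relative to the control of its batch, the knockdown had 75.3% of the CPM in batch 1 and 40.2% in batch 2. The log2 fold change was -0.91 (SE 0.42, adjusted p = 1.00 by edgeR's quasi-likelihood test), and -0.82 with the block (SE 0.29, adjusted p = 0.157), so it was not called. Without control siRNA replicate 2, the library with the highest level, the value was -0.29. In batch 2, where the muscle markers summed to 6.57 and 4.21 CPM and the 5 leukocyte markers with a row were at 0, the log2 change was -1.25. Of the 9 melanocyte markers, 6 were lower in both batches, where 27.8% of all genes were, and 1, SOX10, was higher in both. With the block 4 of 9 were called lower, where 73 of all 10469 genes were, and the median log2 fold change was -0.55. The part of these markers in the BCL2A1 value was not tested. Between 93.5% and 97.5% of its coding reads lay in 1 transcript, with a coding sequence of 492 bases, in every library.

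BCL2L1 was lower as well, with 64.6 and 52.8 CPM in the controls and 46.6 and 24.9 CPM with CDH3-AS1 siRNA. Here too both CDH3-AS1 siRNA libraries lay below both controls. The log2 change was -0.43 in batch 1 and -1.02 in batch 2, and the block model gave -0.71 (SE 0.31, adjusted p = 0.331 by edgeR's quasi-likelihood test). Left-out libraries moved the unblocked value of -0.65 to -0.30 without CDH3-AS1 siRNA replicate 2 and to -1.15 without CDH3-AS1 siRNA replicate 1. Counting reads of all 3 regions in place of the coding sequence brought it to -0.086.

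MCL1 was higher in both batches. It had 169 and 296 CPM in the controls and 255 and 387 CPM with CDH3-AS1 siRNA, or 151% (batch 1) and 131% (batch 2) of the control. The groups overlapped, since the batch 2 control lay above CDH3-AS1 siRNA replicate 1. The block model gave a log2 fold change of 0.53 (SE 0.24, adjusted p = 0.391 by edgeR's quasi-likelihood test), and the unblocked 0.51 (SE 0.42) ranged from 0.16 without CDH3-AS1 siRNA replicate 2 to 0.99 without control siRNA replicate 2. Between 89.7% and 97.5% of its coding reads lay in the transcript with a coding sequence of 1053 bases, and the rest in another of 816 bases. Among 9230 other tested genes with a mean of at least 5 RPKM, those whose levels over the 4 libraries lay closest to MCL1's were P4HB, L1CAM and GSTCD, at distances of 0.072, 0.078 and 0.095 (Euclidean, log2 CPM centred on each gene's mean). With 4 libraries many genes share a profile of this kind.

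BCL2 had 14.7 and 15.3 CPM in the controls, and 16.1 and 24.9 CPM with CDH3-AS1 siRNA. Both CDH3-AS1 siRNA libraries lay above both controls, as for 13.3% of all genes, and the log2 fold change was 0.47 with the block (SE 0.39, adjusted p = 0.811 by edgeR's quasi-likelihood test). These values rest on 27 to 102 coding reads per library.

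The remaining tested members were near 0 or went both ways. BCL2L2 had 27.7 and 19.4 CPM in the controls and 17.3 and 20.3 CPM after knockdown, for a log2 change of -0.63 in batch 1 and 0.12 in batch 2. The read-through gene BCL2L2-PABPN1 shares sequence with it, and reads that fit both could have been assigned to either. BID had 26.1 and 28.1 CPM against 23.5 and 31.4 CPM, and BAK1 17.4 and 6.04 CPM against 14.3 and 4.60 CPM. The block model gave log2 fold changes of -0.25 (SE 0.37), 0.05 (SE 0.35) and -0.27 (SE 0.47) for BCL2L2, BID and BAK1. Each SE was larger than the change itself.

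The batches differed in 3 members. By the block model, batch 2 was higher in MCL1 (log2 change 0.73, adjusted p = 0.0226) and lower in BAK1 (-1.47, adjusted p = 0.0191) and PMAIP1, where 15.8% of all genes were called.

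The make-up of the anti-apoptotic footprint density differed between the siRNAs in both batches. Of the summed RPKM of the 5 anti-apoptotic genes, MCL1 took 35.5% and 43.2% in control replicates 1 and 2, and 52.8% and 62.9% in the CDH3-AS1 siRNA libraries. BCL2A1 took 25.0% and 35.7% in the controls and 18.7% and 16.1% with CDH3-AS1 siRNA. BCL2L1 took 19.8% and 11.4%, and 14.2% and 6.02%. The MCL1 share was higher and the BCL2A1 share lower in both CDH3-AS1 siRNA libraries than in either control, while the BCL2L1 shares overlapped between groups and were lower within each batch. Shares add up to a whole, so a higher share of a gene lowers the others. No test was made of these shares, and none of the 5 genes was called with or without the block. With the longest coding sequence as the length the MCL1 shares were 37.1% and 44.3% against 54.3% and 64.9%.

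**Figure D3:**
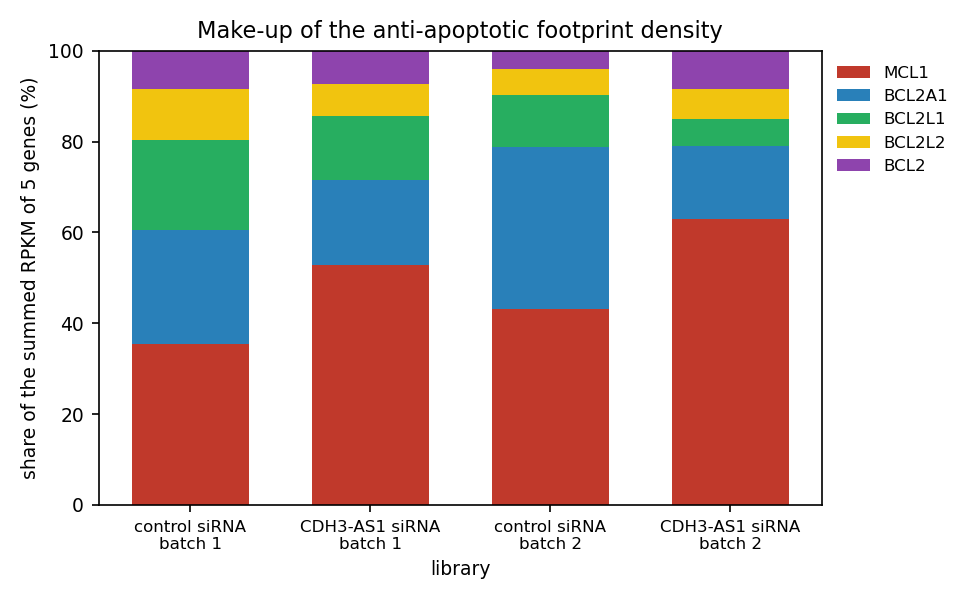
Share of each anti-apoptotic gene in the summed coding-sequence RPKM of the 5 genes, in percent, 1 bar per library. The MCL1 segment fills 35.5% and 43.2% of the control bars and 52.8% and 62.9% of the CDH3-AS1 siRNA bars, and the BCL2A1 segment is smaller with CDH3-AS1 siRNA in each batch.

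PMAIP1 and MCL1 encode binding partners, so their densities were set side by side. The RPKM of PMAIP1 was 128% of that of MCL1 in control siRNA replicate 1 and 122% in CDH3-AS1 siRNA replicate 1. In batch 2 it was 7.80% in the control and 30.7% with CDH3-AS1 siRNA. The batches thus lay farther apart than the siRNAs, and within batch 1 both genes were higher with CDH3-AS1 siRNA. Divided by the longest coding sequence, PMAIP1 stood below MCL1 in all 4 libraries, at 65.1% and 4.46% in the controls and 67.0% and 14.7% after knockdown, so the direction within batch 1 turned with the length used.

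Footprints in the 5′ UTR, where upstream reading frames are translated, were abundant for several members. In BCL2L1 they made up 38.3% (95% interval 31.5 to 45.6) of 5′ UTR and coding reads in control siRNA replicate 1 and 18.6% (14.8 to 23.0) in replicate 2. With CDH3-AS1 siRNA they made up 54.3% (50.4 to 58.2) and 39.3% (30.0 to 49.2). The share was higher with CDH3-AS1 siRNA in each batch and both values lay above both controls. The batch 2 knockdown and the batch 1 control lay inside each other's intervals. How many of all genes had their UTR shares in such an order was not counted, so it cannot be called particular to BCL2L1. Over all genes the share was 6.19% and 5.13% in the controls and 3.90% and 7.21% with CDH3-AS1 siRNA, lower in batch 1 and higher in batch 2. Most of these BCL2L1 reads lay in the transcript with a 5′ UTR of 1024 bases. It took 68 of 74 and 45 of 68 in the controls, and 319 of 352 and 30 of 42 with CDH3-AS1 siRNA. Its coding reads were 0, since all coding reads of the gene were assigned to a transcript with a 5′ UTR of 379 bases. The share thus mostly sets 5′ UTR reads of 1 transcript against coding reads of another.

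An edgeR quasi-likelihood model over both regions, chosen after these shares were seen, gave a log2 change of 1.30 in BCL2L1's ratio of 5′ UTR to coding reads with the block (SE 0.53, unadjusted p = 0.0256, adjusted p = 1.00). Without the block it was 1.32 (SE 0.84, adjusted p = 1.00), which dropped to 0.36 when CDH3-AS1 siRNA replicate 1 was left out. Neither model called any of 3957 genes (0%), and 1.87% (74 genes) had an unadjusted p under 0.05 with the block. Reads in BCL2L1's 5′ UTR alone gave a log2 fold change of 0.59 with the block (SE 0.47, adjusted p = 1.00), beside the lower coding reads above.

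BCL2L1 had a larger share of reads in its 3′ UTR as well. It was 10.5% (5.88 to 17.0) and 4.81% (2.72 to 7.81) of coding and 3′ UTR reads in the controls, and 20.4% (16.4 to 24.9) and 21.7% (13.4 to 32.1) with CDH3-AS1 siRNA. Over all genes it was 3.70% and 1.09% in the controls and 2.37% and 1.75% with CDH3-AS1 siRNA. The same kind of model gave a log2 change in the ratio of 1.62 with the block (SE 0.57, unadjusted p = 0.0237, adjusted p = 0.959) and 1.60 without it (SE 0.65, adjusted p = 1.00). Of 1915 genes the block model called 1 (0.0522%) and the other model 0 (0%). With the block 3.92% (75 genes) had an unadjusted p under 0.05. The 1 called was SLC46A1, a folate transporter named after its value was seen, at a log2 change of -16.5 (SE 0.49). PMAIP1 had an SE of 8.05 with the block against 0.88 without it, so single estimates of this model can be unstable. Whether reads in either UTR come from moving ribosomes was not tested here.

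The other members differed widely in their 5′ UTR share but not in a common direction. MCL1 had at most 0.639% of its 5′ UTR and coding reads there in any library, on 2 to 9 reads, and BID at most 3.66%. BCL2, whose long leader is known to hold back its translation, had 32.5% and 54.7% in the controls and 37.4% and 43.5% with CDH3-AS1 siRNA. BAK1 had 58.4% and 33.3% against 46.2% and 60.0%. PMAIP1 had 15.1% and 37.0% against 12.9% and 28.4%, so the batch with fewer coding reads had the larger share. The 5′ UTR reads of BCL2, BCL2L2, MCL1 and BID were all assigned to transcripts with 0 coding reads. Those of BCL2A1 were all assigned to a transcript with 0.82% to 4.72% of its coding reads. For these genes the share sets reads of different transcripts against each other, wholly or, for BCL2A1, mostly. For BCL2, BAK1, BCL2A1, BCL2L2 and PMAIP1 the log2 change of the ratio lay between -0.44 and 0.41 with the block, each with an adjusted p of 1.00 by edgeR's quasi-likelihood test.

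**Figure D4:**
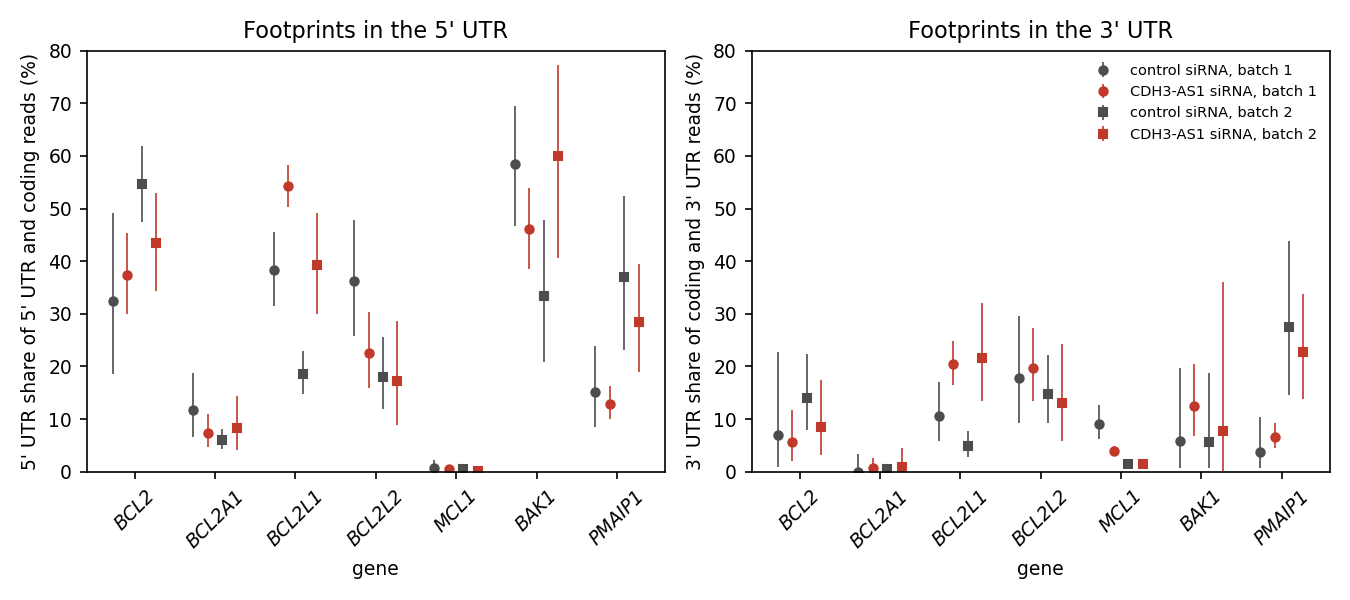
Share of footprints in the 5′ UTR (left, of 5′ UTR and coding reads) and in the 3′ UTR (right, of coding and 3′ UTR reads) for 7 members, in percent, 1 point per library with its 95% Clopper-Pearson interval. In both panels the 2 CDH3-AS1 siRNA points of BCL2L1 lie above its 2 control points, an order not counted over all genes. MCL1 lies near 0 in the left panel.

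Other genes of the pathway were read from lists that follow the steps of apoptosis, and of 64 tested genes in 7 such lists 1 was called with the block, where 1.62% of all genes were, and 0 without it. Of 11 tested genes of the rest of the BCL2 family, 0 passed, with 2 higher and 3 lower in both batches and a median log2 fold change of -0.12 with the block. BMF, a BH3-only protein held on the cytoskeleton until released, had 30.9 and 19.2 CPM in the controls and 60.6 and 39.9 CPM with CDH3-AS1 siRNA. Its log2 fold change was 1.04 with the block (SE 0.32, adjusted p = 0.0685 by edgeR's quasi-likelihood test), with 0.99 in batch 1 and 1.09 in batch 2. BAX, the partner effector of BAK1, stood at -0.20 (SE 0.25), and BNIP3L, which marks mitochondria for removal, at -0.43 (SE 0.25).

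At the outer mitochondrial membrane, VDAC1, the main channel for metabolites, fell with the block: it had 49.4 and 86.7 CPM in the controls and 27.7 and 32.2 CPM after knockdown, for a log2 fold change of -1.08 (SE 0.31, adjusted p = 0.0309 by edgeR's quasi-likelihood test). Of the 8 tested genes of this list 6 were lower and 0 higher in both batches, where 27.8% of all genes were lower in both, and 1 passed, with a median of -0.43 against -0.0050 over all tested genes. VDAC2, which recruits BAK1 and BAX to the membrane, had a log2 fold change of -0.79 (SE 0.43), and TOMM20, a receptor of the protein import machinery, -0.71 (SE 0.28, adjusted p = 0.25). Without the block VDAC1 had -1.14 (SE 0.40, adjusted p = 1.00). VDAC2 and TOMM20 were lower mainly in batch 1, at -1.5 and -1.13, against -0.10 and -0.28 in batch 2.

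Downstream of the mitochondria, 0 of 11 apoptosome and caspase genes passed with or without the block, 4 were higher and 3 lower in both batches, and the median was 0.064 with the block. The executioner caspase CASP6 stood at -0.67 (SE 0.44), and the protease HTRA2, released from mitochondria, at -0.44 (SE 0.29). Of 8 death receptor genes 0 passed, with the adaptor FADD at -0.54 (SE 0.29) and the receptor TNFRSF1A at 0.35 (SE 0.26). Of 4 inhibitor of apoptosis genes 0 passed, with XIAP, which blocks caspases directly, at -0.41 (SE 0.40).

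Of 9 tested enzymes that mark BCL2 proteins for destruction or spare them, 0 passed. The ligase MARCHF5, which acts on MCL1 and NOXA at mitochondria, had a log2 fold change of -0.61 with the block (SE 0.32, adjusted p = 0.517 by edgeR's quasi-likelihood test), FBXW7, a ligase subunit for MCL1, 0.75 (SE 0.55), and UBR2, a ligase of the N-degron pathway, 0.64 (SE 0.29). Of 13 tested transcription factors of BCL2 family genes 0 passed, with 6 higher and 1, MITF, lower in both batches. FOXO1 had 52.1 and 78.0 CPM in the controls and 102 and 122 CPM with CDH3-AS1 siRNA, and a log2 fold change of 0.84 (SE 0.28, adjusted p = 0.101). FOXO3, like FOXO1 an activator of BH3-only genes, had 7.06 and 7.82 CPM against 13.7 and 15.3 CPM, and a log2 fold change of 0.96 (SE 0.46, adjusted p = 0.447). MITF stood at -0.24 (SE 0.22).

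PMAIP1 is a known target of ATF4, which is given for that reason, after its values were seen. ATF4 had 67.3 and 10.8 CPM in the controls and 75.5 and 14.6 CPM with CDH3-AS1 siRNA, with a batch difference of -2.43 (log2, adjusted p = 4.79e-11) beside the -2.16 of PMAIP1, and a change with the siRNA of 0.31 (SE 0.32, adjusted p = 0.873 by edgeR's quasi-likelihood test).

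**Figure D5:**
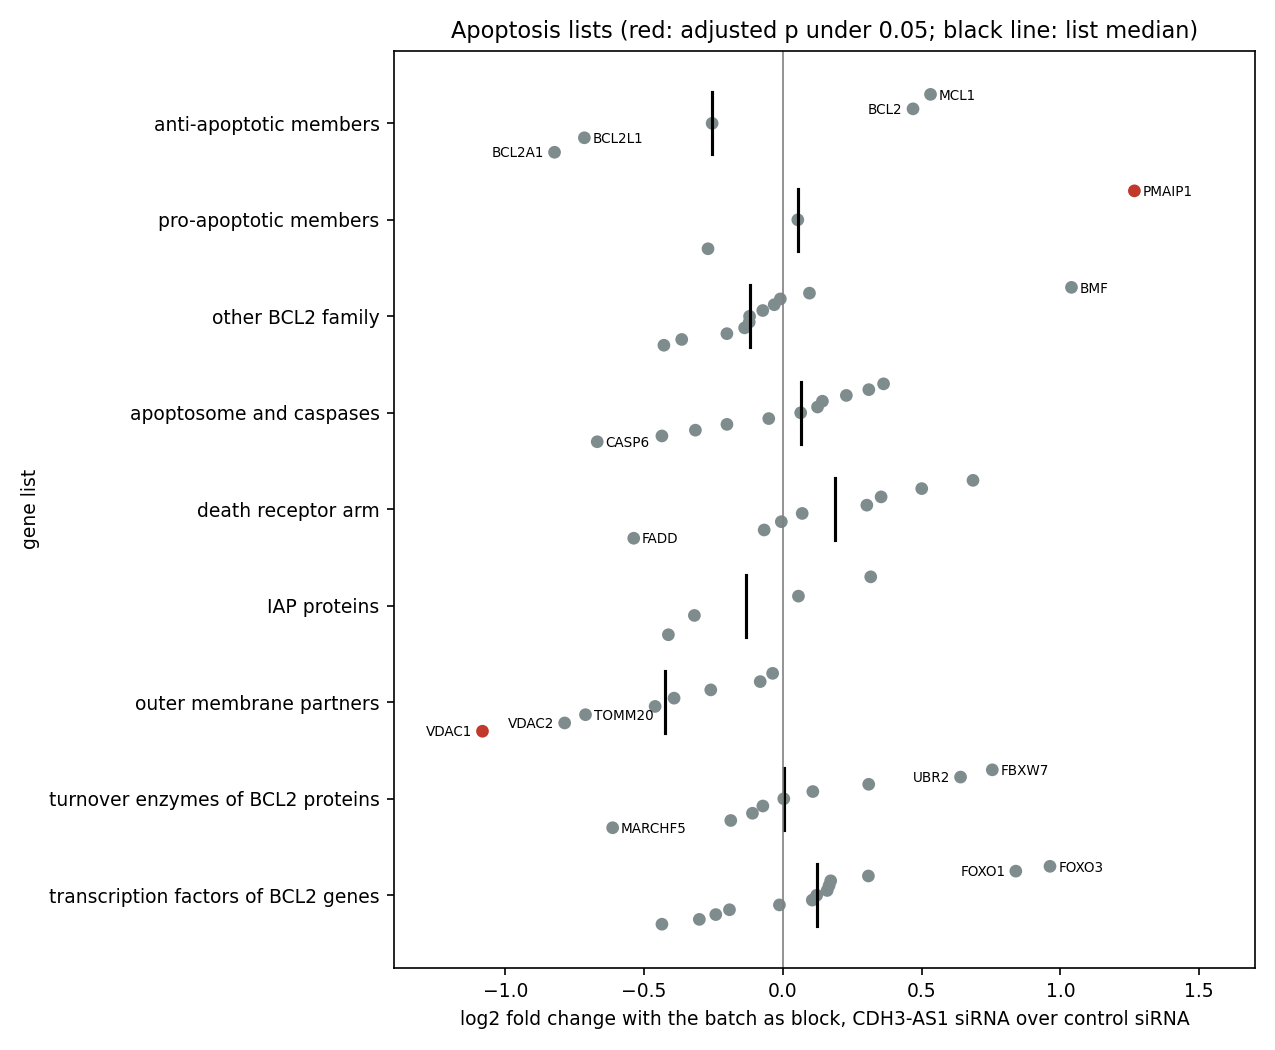
Log2 fold change with the batch as a block, CDH3-AS1 siRNA over control siRNA, for the tested genes of the 2 member groups and of 7 apoptosis lists; 1 point per gene, spread vertically for legibility, black lines at the list medians, red points past an adjusted p of 0.05. PMAIP1 at 1.27 and VDAC1 at -1.08 are the 2 red points.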

How the data were processed

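Ribosome footprints were analysed from 4 libraries. Per the file headers, the authors deposited, for each transcript, read counts and RPKM values (reads per kilobase per 1000000 reads) in the 5′ UTR, the coding sequence and the 3′ UTR. The submitters' processing notes name hg38 and DESeq2; not given in the sources used here were the aligner and the rule assigning reads to transcripts, so splits between transcripts are the authors'.

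Coding-sequence counts were summed by gene name. Genes were kept by filterByExpr (minimum count 10, total 15), scaled by TMM and tested with edgeR 4.0.16's quasi-likelihood test in R 4.3.3 with a prior count of 2. P-values were adjusted by Benjamini-Hochberg over all 10469 tested genes, with a threshold of 0.05; SEs follow from the fold change and its F statistic. Per the labels, libraries of the same replicate number share a batch. Same-numbered libraries deviated together from their group means (r = 0.58), so a fit with batch as replicate block stands beside the unblocked fit. It has 1 residual degree of freedom, against 2, and gave a biological coefficient of variation of 20.2% against 35.9%. An exact permutation test of 2 against 2 libraries cannot go below p = 0.333, so none was made. DESeq2 1.42.0 and limma 3.58.1 were alternatives. Within-batch changes are differences of TMM-scaled log2 CPM. Intervals are 95% Clopper-Pearson intervals and, like the floor of 3 reads, cover counting error only.

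The members, the pathway lists and the markers were chosen with earlier results of these data known. Genes named from a list were those called with or without the block and, up to 3 in all, those with the largest log2 fold change among genes of at least 5 RPKM with the same direction in both batches; for MCL1, the 3 genes nearest in level were named. A gene that this rule also names is not reported here. The models of UTR ratios, the longest-coding-sequence lengths and the single-transcript fits of PMAIP1 were chosen after seeing the data.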

Additional observations from a re-analysis of the deposited data

Results flagged for a closer look

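Several members had changes of opposite sign in the 2 batches, and these differences between batches were not tested, since a model with a separate siRNA effect in each batch leaves no residual degrees of freedom. The log2 change of BCL2L2 coding reads was -0.63 in batch 1 and 0.12 in batch 2, and that of BID -0.11 and 0.21.

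The 5′ UTR share of BCL2 was 4.92 percentage points higher with CDH3-AS1 siRNA in batch 1, while in batch 2 the difference was -11.3 points. For BCL2A1 the differences were -4.26 and 2.24 points, and for BAK1 -12.3 and 26.7 points, the last on 30 reads in CDH3-AS1 siRNA replicate 2. In the 3′ UTR share the differences were 1.97 and -1.73 points for BCL2L2, and 2.95 and -4.83 points for PMAIP1.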

How the results depend on the processing

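Without the block 0 genes were called and 225 had an unadjusted p under 0.05 in edgeR's quasi-likelihood fit. With the batch as a replicate block 170 genes were called, 1 of them a member (PMAIP1), and with RLE size factors and the block 172, 1 of them PMAIP1. DESeq2 called 2 genes without the block and 55 with it, and no filter on low counts gave 52; none of these was a member. Leaving out each library in turn gave 0 to 73 genes and 0 members, the 73 without control siRNA replicate 2. The block could not be fitted with a library left out, which leaves no residual degrees of freedom. The block changed the call of no other member.

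The log2 fold changes of BCL2, BCL2A1, BCL2L1, MCL1 and PMAIP1 kept their direction under every alternative run, from 0.12 to 0.77 for BCL2, -1.30 to -0.29 for BCL2A1, -1.15 to -0.086 for BCL2L1 (the last with reads of all 3 regions counted), 0.16 to 0.99 for MCL1 and 0.0013 to 3.09 for PMAIP1. With a library left out, BCL2L2 ran from -0.49 to 0.016, BAK1 from -1.15 to 0.73 and BID from -0.18 to 0.27. BAK1 was 0.35 without CDH3-AS1 siRNA replicate 2 and 0.21 on the transcript with the most coding reads. In a single batch, BCL2L2 was 0.12 in batch 2 and BID -0.11 in batch 1. The cause of these reversals was not tested. The ratio of 5′ UTR to coding reads of BCL2L1 ran from 0.36 to 2.20. BCL2L11, with at most 12 reads, and BAK1, with 12 in CDH3-AS1 siRNA replicate 2, are limited by depth.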
